A study of Mus musculus with 20 samples.

Results

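The genes described here are cytochrome P450 genes of the Cyp2 family outside the Cyp2b and Cyp2c subfamilies: Cyp2e1, Cyp2f2, Cyp2a5, Cyp2a12, Cyp2j5, Cyp2d9, Cyp2d10, Cyp2d22, Cyp2d26 and Cyp2u1. They were chosen by symbol, and every probe set whose annotated gene symbol is exactly 1 of the 10 names was used, which gave 12 probe sets for 9 genes among 45037 probe sets for 18193 genes. Cyp2a5 had no probe set of its own, because the only probe set that names it also names the closely related Cyp2a4, so no value is given for it. Cyp2j5, Cyp2d22 and Cyp2u1 were each measured by 2 probe sets and the other 6 genes by 1.

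Livers of male mice were profiled 1 animal per Affymetrix Mouse430_2 array, in 4 groups of 5 animals. Wild type (WT) mice were C57Bl/6 (PXR+/+), and knockout (PXR-KO) mice were C57Bl/6NTac (PXR-/-), which lack the pregnane X receptor. The labels of the knockout animals give the background in different ways in different fields, and genotype and C57BL/6 substrain cannot be told apart. All mice were young adults of 1 age and were gavaged daily, either with CMP013, an inhibitor of the protease BACE1, at 150 mg/kg, or with the vehicle alone at 0 mg/kg, and livers were taken at 96 h. The labels give RNA integrity numbers of 9.3 to 10 for PXR+/+ and 8.7 to 9.6 for PXR-/- livers, and the part of this gap in the difference between genotypes was not tested.

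PXR is a nuclear receptor that, once bound by a drug or bile acid, pairs with RXR and switches on drug-metabolism genes, above all those of the Cyp3a and Cyp2b subfamilies. The Cyp2 enzymes sit in the membrane of the endoplasmic reticulum, carry a heme and take electrons from cytochrome P450 reductase and cytochrome b5. Most of the genes described here, but not Cyp2u1, are known as parts of the constitutive P450 set of the liver. That set is kept on by liver-enriched factors such as HNF1 and HNF4 and, for several Cyp2d genes, by the male pattern of growth hormone. The comparison asks how each gene described here moved with CMP013 in each genotype, and whether the 2 responses differed.

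Of the 10 genes, 4 lie among the 19 Cyp2 loci of chromosome 15 (Cyp2d22, Cyp2d10, Cyp2d9 and Cyp2d26), 4 among the 19 of chromosome 7 (Cyp2a5, Cyp2a12, Cyp2f2 and Cyp2e1), 1 among the 10 of chromosome 4 (Cyp2j5), and Cyp2u1 is the only Cyp2 locus of chromosome 3. Promoter sequence was at hand for 8 of the 10, all but Cyp2d22 and Cyp2u1. Shown here are the 150 bases before the annotated start of 3 Cyp2d genes, which lie in 1 cluster and of which Cyp2d26 alone had responses that differed between the genotypes, and of Cyp2e1, the best known hepatic member. The sequences are RefSeq's, build GRCm38.p6, read 5′ to 3′ on the gene's own strand: Cyp2d9 chr15:82452227-82452376 (+), Cyp2d10 chr15:82407195-82407344 (-), Cyp2d26 chr15:82794246-82794395 (-) and Cyp2e1 chr7:140763669-140763818 (+). Capitals mark TATAA in all 4 where it reads in the direction of the gene, an HNF1-like motif in Cyp2e1 (on the other strand), and in the Cyp2d genes CAGAGNACAAAGNGCA, the longest ungapped stretch that a search of these 3 windows found with at most 2 positions not identical in all of them.
Cyp2d9: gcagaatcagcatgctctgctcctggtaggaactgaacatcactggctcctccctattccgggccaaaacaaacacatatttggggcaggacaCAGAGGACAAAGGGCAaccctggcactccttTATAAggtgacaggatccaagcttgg
Cyp2d10: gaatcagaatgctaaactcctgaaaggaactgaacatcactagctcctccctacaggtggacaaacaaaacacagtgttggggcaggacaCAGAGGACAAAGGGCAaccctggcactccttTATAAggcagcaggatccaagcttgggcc
Cyp2d26: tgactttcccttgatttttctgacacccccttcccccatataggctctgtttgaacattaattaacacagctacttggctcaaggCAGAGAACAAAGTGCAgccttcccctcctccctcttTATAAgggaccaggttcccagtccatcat
Cyp2e1: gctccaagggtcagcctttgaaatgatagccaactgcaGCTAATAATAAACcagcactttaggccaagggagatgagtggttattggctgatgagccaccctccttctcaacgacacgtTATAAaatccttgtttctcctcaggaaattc

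The motifs were searched on both strands of windows of 300 bases, 250 of them before the start, and TATAA on one strand overlaps its match on the other by all but 1 base. CAGAGNACAAAGNGCA was found in 6 of 32851 mouse promoter windows (0.0183%), and it stood 57 to 42 bases before the start in Cyp2d9, 60 to 45 in Cyp2d10 and 65 to 50 in Cyp2d26. Of the other 3 windows 2 were of Cyp2d genes, Cyp2d11 and Cyp2d40. TATAA was found in 24.9% of all windows and in 7 of the 8 windows here, the exception being Cyp2f2. The HNF1-like motif, found in 0.28% of windows, stood in Cyp2e1 (112 to 100 bases before the start) and Cyp2j5 (172 to 160). TTGCNNAA, a C/EBP-like motif found in 10.8% of windows, stood only in Cyp2a5. Repeats of AGNTCA spaced by 3 or 4 bases, or everted with 6 bases between, the arrangements PXR is known to bind, were found in 0.07%, 0.125% and 0.0304% of windows and in none of the 8. Motifs this rare would seldom fall in 8 windows, so their absence tells nothing about PXR binding. Sequence beyond the windows was not searched. Aligned over these 150 bases, Cyp2d9 and Cyp2d10 had 84% identical bases, Cyp2d9 and Cyp2d26 58%, and Cyp2d10 and Cyp2d26 56.7%, where Cyp2e1 against the 3 gave 45.3% to 53.3%.

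All values below are log2 ratios of the signal of 1 animal to the mean of its own genotype's 5 vehicle animals, and a response is the CMP013 mean minus the vehicle mean of these log2 values. The mean vehicle ratio was 0.986 to 1 at the 12 probe sets in both genotypes, except at Cyp2u1 1453500_at in PXR-KO mice, where it was 0.914, so there 0 lies above the mean of the vehicle animals (-0.15 in log2). Rose, fell or changed is written where limma's adjusted p, over all 45037 probe sets, was under 0.05. In WT mice 3 of the 12 probe sets changed, all lower, beside 14.4% of all probe sets in either direction, 6.72% lower and 7.67% higher. In PXR-KO mice 2 of 12 changed, both lower, beside 3.65% in either direction, 1.54% lower and 2.12% higher. The responses differed at 2 of 12, both with the lower value in WT mice, beside 11.0% in either direction, 5.49% lower and 5.47% higher. At an unadjusted p under 0.05 the counts were 6, 3 and 4 of 12 (WT, PXR-KO and difference). Over all 45037 probe sets they were 12413, 9034 and 11312, which also stand beside the later counts at an unadjusted p. The median response over the 12 probe sets was -0.14 (WT) and -0.10 (PXR-KO), where the median over all probe sets was -0.01 and 0.01, and the median difference was -0.05 beside -0.02. None of the 12 rose in either genotype by limma, and at an unadjusted p under 0.05 none was higher either.

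Of the vehicle arrays, 4 stood apart in earlier results of these data, WT vehicle 3 and 4 and PXR-KO vehicle 2 and 4. Their medians over all probe sets were -0.02 to -0.03, and those of the other vehicle animals -0.01 to 0.01. Without them the calls over all probe sets went from 6480 to 3308 for the WT response and from 1645 to 363 for the PXR-KO response. Of the genes described here, Cyp2d22 1419040_at and Cyp2u1 1453500_at in WT mice, Cyp2u1 1453500_at in PXR-KO mice and the Cyp2d22 difference at 1419040_at remained called.

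**Figure D1:**
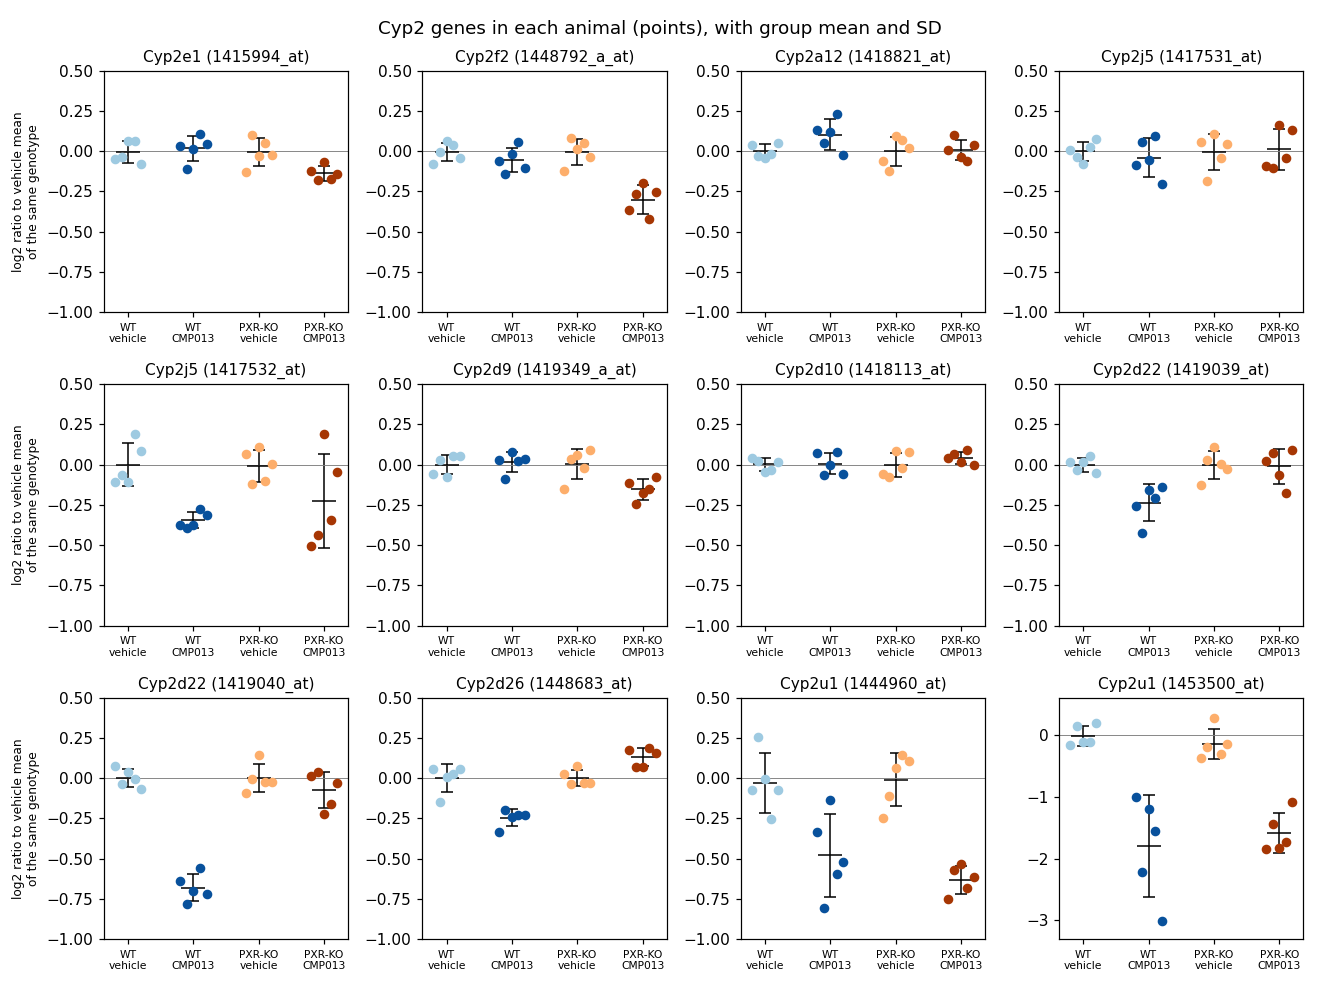
Log2 ratio to the vehicle mean of the same genotype (vertical axis) of each animal (points) in the 4 groups, for the 12 probe sets, with the group mean and SD (bars, n = 5); the last panel has a wider axis. Both Cyp2u1 probe sets have low CMP013 means in both genotypes, and at Cyp2d22 1419040_at the WT CMP013 animals alone stand low, between -0.78 and -0.56.

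Cyp2u1, which hydroxylates long-chain fatty acids such as arachidonic acid, showed the largest response of the genes described here. At probe set 1453500_at it fell in both genotypes. There the WT CMP013 animals had log2 ratios of -1.0, -2.22, -1.20, -1.55 and -3.01 and the WT vehicle animals -0.17, 0.14, -0.11, -0.12 and 0.18. The PXR-KO CMP013 animals had -1.84, -1.45, -1.82, -1.74 and -1.09 and the PXR-KO vehicle animals -0.37, -0.19, 0.27, -0.30 and -0.14. In each genotype every treated animal lay below every vehicle animal, and the WT treated animals were more spread than the PXR-KO treated animals (SD 0.82 against 0.32). The response was -1.78 (SE 0.34, limma adjusted p = 0.00714) in WT mice, a level that fell by 70.9% (95% confidence interval of the change -82.8% to -50.9%). In PXR-KO mice it was -1.44 (SE 0.17, adjusted p = 0.004), a level that fell by 63.1% (-71.8% to -51.8%). The difference, WT minus PXR-KO, was -0.34 with a wide interval of -1.18 to 0.49 (adjusted p = 0.64), so neither a larger nor a smaller response in WT mice was shown. The ratios do not show whether the Cyp2u1 probe sets are near background.

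The second Cyp2u1 probe set, 1444960_at, moved less. Its log2 ratios were -0.33, -0.81, -0.13, -0.60 and -0.52 in WT CMP013 and -0.07, 0.26, -0.003, -0.26 and -0.07 in WT vehicle animals. They were -0.75, -0.57, -0.53, -0.68 and -0.62 in PXR-KO CMP013 and -0.25, -0.11, 0.07, 0.14 and 0.11 in PXR-KO vehicle animals. The treated animals lay apart from vehicle in PXR-KO mice, whereas WT CMP013 animal 3 lay above WT vehicle animal 4. The response was -0.62 (SE 0.10, adjusted p = 0.0113) in PXR-KO mice and -0.45 (SE 0.14, adjusted p = 0.0622) in WT mice, and the difference was 0.17 (-0.18 to 0.53, adjusted p = 0.57). Taken within each animal, 1453500_at responded by -1.33 more than 1444960_at in WT mice and by -0.82 more in PXR-KO mice (exact two-sided permutation test over 252 splits, p = 0.00794 in each, adjusted p = 0.0159 over 6 such tests, the smallest unadjusted p that 5 against 5 animals allow). The calls in PXR-KO mice were lost at both probe sets with trend and robust variances (adjusted p = 0.0536 at 1453500_at and 0.0692 at 1444960_at), and at 1444960_at also with quantile normalization (0.0518) and without the 4 vehicle animals that stood apart (0.0608).

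Cyp2d22, a member of the Cyp2d drug-oxidizing subfamily, fell in WT mice at probe set 1419040_at, where its response also differed between the genotypes. There the WT CMP013 animals had log2 ratios of -0.64, -0.78, -0.70, -0.56 and -0.72 and the WT vehicle animals 0.07, -0.04, 0.04, -0.002 and -0.07. The PXR-KO CMP013 animals had 0.01, 0.04, -0.23, -0.16 and -0.03 and the PXR-KO vehicle animals -0.09, -0.01, 0.15, -0.02 and -0.02. The WT treated animals lay far below their vehicle group with little spread, and the PXR-KO groups overlapped. The WT response was -0.68 (SE 0.08, adjusted p = 0.000444), a level that fell by 37.6% (-44.6% to -29.8%), and the PXR-KO response was -0.07 (-0.27 to 0.12, adjusted p = 0.688). The difference was -0.61 (SE 0.10, adjusted p = 0.000865), and with quantile normalization it was -0.44 with an adjusted p of 0.0559.

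The other Cyp2d22 probe set, 1419039_at, also had WT CMP013 animals all below vehicle but closer to it, at -0.26, -0.42, -0.15, -0.21 and -0.14 against vehicle values of -0.05 to 0.06. Its response was -0.24 (SE 0.08, adjusted p = 0.0859) in WT mice and -0.01 (-0.20 to 0.18) in PXR-KO mice, and the difference was -0.23 (adjusted p = 0.19). Within each animal the 2 probe sets of Cyp2d22 differed in response by -0.45 in WT mice (exact permutation p = 0.00794, adjusted p = 0.0159) and by -0.06 in PXR-KO mice (p = 0.135). The transcripts that each of them reads were not analysed here. With the mean over both probe sets in their place, Cyp2d22 responded by -0.46 in WT mice (adjusted p = 0.00332) and the difference was -0.42 (adjusted p = 0.011).

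Cyp2d26, an abundant hepatic Cyp2d gene, was the second gene whose responses differed, and they had opposite signs. The WT CMP013 animals had log2 ratios of -0.34, -0.20, -0.24, -0.23 and -0.23 and the WT vehicle animals 0.06, -0.15, 0.01, 0.03 and 0.06. The PXR-KO CMP013 animals had 0.17, 0.07, 0.07, 0.19 and 0.16 and the PXR-KO vehicle animals 0.02, -0.03, 0.08, -0.03 and -0.03. All WT treated animals lay below WT vehicle, and 3 of the 5 PXR-KO treated animals lay above all of theirs. Neither response passed alone, at -0.25 in WT mice (SE 0.08, adjusted p = 0.058) and 0.13 in PXR-KO mice (SE 0.07, adjusted p = 0.351). The difference was -0.38 (SE 0.09, adjusted p = 0.00975), with a 95% confidence interval of -0.57 to -0.19. That call was lost with quantile normalization (-0.28, adjusted p = 0.173) and without the 4 vehicle animals that stood apart (-0.35, adjusted p = 0.0944).

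Cyp2d9, a male-biased testosterone hydroxylase, and Cyp2d10, both of the same cluster, did not pass the test in any comparison. Cyp2d9 had a WT response of 0.01 (-0.15 to 0.18) and a PXR-KO response of -0.15 (-0.33 to 0.03, adjusted p = 0.318), with PXR-KO CMP013 animals between -0.25 and -0.08 and PXR-KO vehicle animals between -0.15 and 0.09. For Cyp2d10 the responses were 0.01 (-0.16 to 0.17) and 0.04 (-0.12 to 0.21), and its 20 animals all lay between -0.08 and 0.09. In percent, the interval of Cyp2d10 in WT mice ran from -10.2% to 12.2%. Cyp2d transcripts are close in sequence, so a probe set named for 1 of them may also take signal from others. Over all 8 Cyp2d genes measured, with 10 probe sets, WT responses ran from -1.19 to 0.47 with 3 lower and 0 higher. Besides the Cyp2d22 call, the other 2 were the 2 probe sets of Cyp2d13 (-0.66 and -1.19), which is annotated as a transcribed pseudogene. In PXR-KO mice 0 of the 10 passed by limma, 2 had an unadjusted p under 0.05, and the range was -0.48 to 0.39.

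Cyp2j5, which epoxidizes arachidonic acid, gave different answers at its 2 probe sets. At 1417532_at the WT CMP013 animals had log2 ratios of -0.38, -0.39, -0.37, -0.27 and -0.31 and the WT vehicle animals -0.10, -0.06, -0.11, 0.19 and 0.09. The PXR-KO CMP013 animals had -0.50, -0.43, 0.19, -0.34 and -0.05 and the PXR-KO vehicle animals lay between -0.12 and 0.11. WT treated animals formed a tight group below vehicle, whereas in PXR-KO mice 3 treated animals were low and 2 lay within or above the vehicle range. The WT response was -0.35 (SE 0.09, adjusted p = 0.0248), a level that fell by 21.3% (-31.2% to -10.1%), the PXR-KO response was -0.22 (-0.53 to 0.09, adjusted p = 0.415), and the difference was -0.13 (-0.46 to 0.21). At 1417531_at the responses were -0.04 (-0.23 to 0.15) in WT and 0.02 (-0.20 to 0.23) in PXR-KO mice. Within each animal 1417532_at responded by -0.31 more in WT mice (exact permutation p = 0.0159, adjusted p = 0.0239) and by -0.23 more in PXR-KO mice (p = 0.0397, adjusted p = 0.0476). The WT call was near the threshold: it was lost without WT vehicle animal 4 (0.0547) or 5 (0.06), without WT CMP013 animal 1 (0.0521), 2 (0.055) or 3 (0.0546), with quantile normalization (-0.25, adjusted p = 0.287) and without the 4 vehicle animals that stood apart (0.0912). With the mean over both probe sets in their place, the WT response of Cyp2j5 was -0.19 and was not called (adjusted p = 0.142). Of the other Cyp2j genes, Cyp2j9 fell in WT mice (-0.97, adjusted p = 0.00545) and differed between genotypes (-0.82, adjusted p = 0.0488).

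None of the 3 chromosome 7 genes measured passed the test in any comparison. Cyp2e1, which oxidizes ethanol and acetaminophen and is known as a gene of pericentral hepatocytes, had WT CMP013 animals at 0.03, -0.11, 0.01, 0.11 and 0.04 and PXR-KO CMP013 animals at -0.12, -0.18, -0.07, -0.17 and -0.14. Its responses were 0.02 (-0.15 to 0.20) in WT and -0.13 (-0.30 to 0.04, adjusted p = 0.379) in PXR-KO mice, and the difference was 0.15 (-0.04 to 0.35, adjusted p = 0.322). The 5 PXR-KO treated animals were all below 0 but overlapped their vehicle group. Cyp2a12, a testosterone and bile acid hydroxylase, had responses of 0.10 (-0.07 to 0.27) and 0.01 (-0.17 to 0.19).

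Cyp2f2, known for naphthalene oxidation and in mouse liver for its periportal expression, was the 1 gene with PXR-KO treated animals all below vehicle and no call. Its PXR-KO CMP013 animals had log2 ratios of -0.37, -0.27, -0.20, -0.42 and -0.26 and the PXR-KO vehicle animals -0.12, 0.08, 0.01, 0.05 and -0.04. In WT mice the treated animals lay between -0.14 and 0.05, inside or just beyond the vehicle range of -0.08 to 0.06. The response was -0.30 (SE 0.08, adjusted p = 0.0782) in PXR-KO mice and -0.05 (-0.22 to 0.12) in WT mice, and the difference was 0.25 (SE 0.10, adjusted p = 0.108). With all 4 groups in 1 fit the PXR-KO response passed (adjusted p = 0.0123). That fit also called the WT responses of Cyp2d26 (0.00931), Cyp2u1 1444960_at (0.0131) and Cyp2d22 1419039_at (0.0349).

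**Figure D2:**
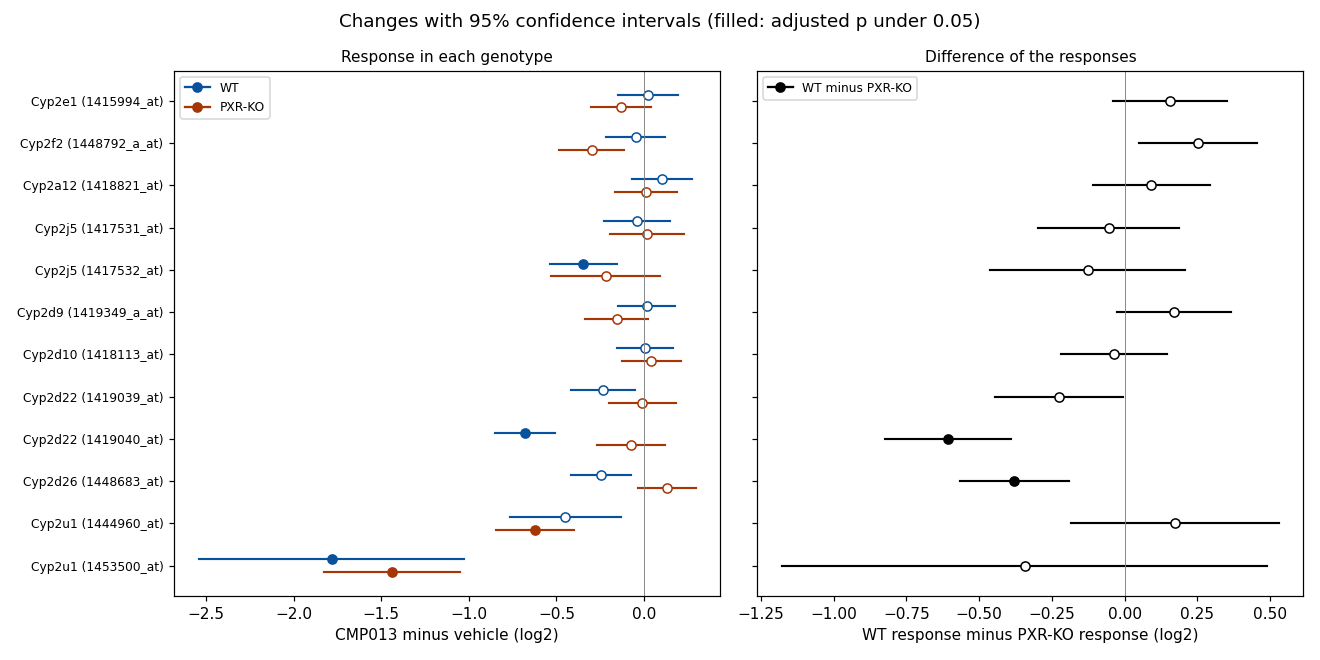
Left, response of each probe set in log2 units (CMP013 minus vehicle) in WT and PXR-KO mice; right, the difference of both responses (WT minus PXR-KO). Lines are 95% confidence intervals from limma and filled points have an adjusted p under 0.05: 3 WT, 2 PXR-KO and 2 differences, all left of 0.

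Counted by animals, the treated group lay wholly below vehicle at 5 of 12 probe sets in WT mice (6.96% of all probe sets) and at 3 of 12 in PXR-KO mice (3.50%), and never wholly above. Animals were also counted past a log10 ratio of 0.097, a 1.25-fold change or 0.32 in log2. The methods of the study use this size together with a p-value of the array platform, which was not used here, so the counts that follow rest on size alone. All 5 WT CMP013 animals passed it downward at Cyp2u1 1453500_at and at Cyp2d22 1419040_at, 4 at Cyp2u1 1444960_at, 3 at Cyp2j5 1417532_at and 1 each at Cyp2d22 1419039_at and Cyp2d26. Among PXR-KO CMP013 animals all 5 passed at both Cyp2u1 probe sets, 3 at Cyp2j5 1417532_at and 2 at Cyp2f2. No treated animal passed it upward at any of the 12, and of the vehicle animals only 1, a PXR-KO animal at Cyp2u1 1453500_at, passed it at all.

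The other Cyp2 genes included much larger responses. Of 30 probe sets for 26 other Cyp2 genes, 8 rose and 8 fell in WT mice and 2 rose and 2 fell in PXR-KO mice, with median responses of 0.02 (WT) and -0.26 (PXR-KO). Cyp2b10, the classical target of the xenobiotic receptors, rose by 5.95 to 6.47 at its 3 probe sets in WT mice, and its PXR-KO responses were -2.25 to -1.33, of which the last passed (adjusted p = 0.0363). Cyp2c55 rose by 5.90 in WT mice and fell by 3.92 in PXR-KO mice. Of the genes described here, only Cyp2u1 1453500_at passed the test in both genotypes.

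**Figure D3:**
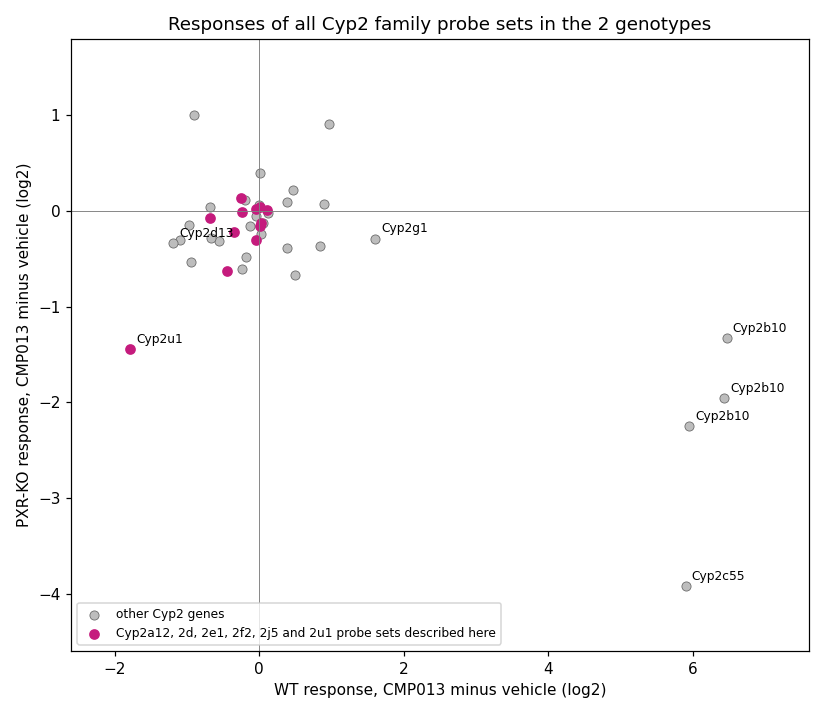
Response in WT mice (horizontal axis, log2) against response in PXR-KO mice (vertical axis, log2) of every Cyp2 probe set that names 1 gene. The 12 probe sets described here (magenta) include Cyp2u1 1453500_at at -1.78 and -1.44, Cyp2u1 1444960_at at -0.45 and -0.62 and Cyp2d22 1419040_at at -0.68 and -0.07, and the others lie between -0.35 and 0.13 on both axes, while the other Cyp2 genes (grey) reach 6.47 in WT mice.

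Genes with functions around these P450s were taken from lists chosen with earlier results known. Of 59 probe sets for 25 regulators of hepatic P450 genes, 1 rose and 18 fell in WT mice and 5 rose and 1 fell in PXR-KO mice. Nr1i3, the constitutive androstane receptor, fell in WT mice (-0.70, adjusted p = 0.0283) and rose in PXR-KO mice (1.61, adjusted p = 0.00138). Hnf4a, a master regulator of hepatocyte genes, fell at 3 of its 4 probe sets in WT mice, by 0.29 to 0.52, and its PXR-KO responses, none of them called, were -0.08 to 0.37. Stat5b, which carries the growth hormone signal, fell at 1 of its 2 probe sets in both genotypes (-0.75 and -0.43). Of 20 probe sets for P450 electron partners and heme enzymes, 2 rose and 1 fell in WT mice and 1 rose and 5 fell in PXR-KO mice, among them 3 of Cyb5r3, the cytochrome b5 reductase (-1.23 to -0.68).

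The lists that share a zone or a sex pattern with genes described here gave the following counts. Of 28 pericentral probe sets, the zone of Cyp2e1, 3 rose and 2 fell in WT and 3, all of Slc1a2, rose in PXR-KO mice, and of 18 periportal ones, the zone of Cyp2f2, 1 rose and 6 fell in WT and 1 rose in PXR-KO mice. Male-biased growth hormone genes, the pattern of Cyp2d9, had 1 of 21 probe sets higher and 12 lower in WT mice and 5 lower in PXR-KO mice, while Cyp2d9 itself passed in neither. Female-biased ones had 3 of 14 higher in WT mice, of 3 genes, and 4 higher in PXR-KO mice, all of Fmo2.

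In whole liver, fewer cells of a type and less RNA per cell cannot be told apart. Hepatocyte markers had 3 of 19 probe sets lower in WT and 0 called in PXR-KO mice by limma (6 at an unadjusted p under 0.05), and their mean log2 ratio per animal was -0.28 to -0.16 in WT CMP013 against -0.11 to 0.06 in WT vehicle, and -0.19 to -0.10 in PXR-KO CMP013 against -0.11 to 0.09 in PXR-KO vehicle. Sinusoidal endothelial markers had 8 of 14 lower in WT mice, with means of -0.46 to -0.32 in WT CMP013 against -0.12 to 0.04 in vehicle, and 2 higher and 1 lower in PXR-KO mice, with means of -0.01 to 0.10 against -0.15 to 0.14. Macrophage and Kupffer markers had 4 of 15 lower in WT and 3 higher in PXR-KO mice, with means of -0.40 to -0.18 in WT CMP013 (vehicle -0.37 to 0.21) and 0.40 to 0.80 in PXR-KO CMP013 (vehicle -0.52 to 0.63). Cycling-cell markers had 5 of 10 higher in WT mice, with means of 0.36 to 1.47 against -0.45 to 0.24. In PXR-KO mice 0 of these 10 were called by limma (4 at an unadjusted p under 0.05). Their means were -0.92 to -0.39 in PXR-KO CMP013 against -0.31 to 0.10 in PXR-KO vehicle. The part of these shifts in the responses of Cyp2d22, Cyp2d26, Cyp2j5 and Cyp2u1 was not tested, and the table of ratios does not show which markers are near background. Of the remaining lists, stellate markers had 1 of 20 higher and 5 lower in WT mice, cholangiocyte markers 1 of 9 higher, neutrophil markers 2 of 5 higher, erythroid markers 1 of 5 higher and 1 lower, and lymphocyte markers 0 of 12 called by limma (3 at an unadjusted p under 0.05). In PXR-KO mice the same lists had 1 stellate marker lower, 1 neutrophil marker higher, 1 erythroid marker lower, and 0 of 9 cholangiocyte and 0 of 12 lymphocyte markers called by limma (0 and 3 at an unadjusted p under 0.05). The neutrophil markers had means of -0.16 to 1.54 in PXR-KO CMP013 against -0.51 to 0.24 in vehicle animals.

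The genes whose ratios ran most like each changed gene over the 20 animals were named as a description, by Pearson's r with the probe set of it that varied least among vehicle animals, and the animals share arrays, groups and treatment. For Cyp2u1 1444960_at these were Lama3 (r = 0.944), Paxx (0.942) and Tsc22d1 (0.939). For Cyp2d26 they were Pbrm1 (0.962), F5 (0.956) and Reep3 (0.947), which had differences between responses of -0.69, -0.74 and -0.87. Cyp2d22 1419039_at, which passed in no comparison of the unaltered limma fits, ran most like Bccip (0.895), 1600014C10Rik (0.889) and Trim28 (0.886). Cyp2j5 1417531_at, which also passed in none of these comparisons, ran most like Dkc1 (0.818), Rnf13 (0.785) and Arid4b (0.781).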

How the data were processed

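Liver RNA of 20 mice was hybridized to Affymetrix Mouse430_2 arrays. The authors deposited log10 values, made in Rosetta Resolver, in which each animal's intensity is divided by the average over the 5 vehicle-dosed mice of that genotype. Intensities and detection calls were not used here, so background, saturation, dim probe sets, the knockout effect under vehicle and the level of the deleted gene as a check of the labels were not analysed here; the number of arrays limits the precision. Averaged over vehicle animals, the ratio was within 0.1 of 1 for 92% (WT) and 90.2% (PXR-KO) of probe sets. All 20 columns were used, with 0 missing values and 7 values at the limit of the scale, and no 2 arrays correlated above 0.593.

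The deposited log10 ratios were converted to log2 and kept as normalized by the authors. CMP013 was compared with vehicle with limma 3.58.1 under R 4.3.3 (moderated test of lmFit and eBayes, two-sided) on the 10 arrays of each genotype, and the difference of responses on all 20, with Benjamini-Hochberg adjustment over 45037 probe sets. Gene names came from GEO's platform annotation: 34945 probe sets name 1 gene, 932 several and 9160 none. Every probe set of the genes described was named, besides up to 4 genes per list with the smallest adjusted p where a result turns on them, and the 3 genes most like each changed gene. The genes and lists were chosen with earlier results of these data known. Differences between probe sets of a gene were tested by exact permutation over animals. Alternatives were quantile normalization, a common array median, the replicate number as a block, trend and robust variances, array weights, all 4 groups in 1 fit, the size threshold of the methods, the mean over the probe sets of a gene and each animal left out in turn. Leaving out 4 vehicle animals that stand apart was chosen after seeing the data. Sequences and figures were made with Python 3.11.15, pandas 2.3.3, Biopython 1.88 and matplotlib 3.10.9.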

Additional observations from a re-analysis of the deposited data

Results flagged for a closer look

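The responses of the 2 genotypes differed by limma (WT minus PXR-KO) at Cyp2d22 1419040_at (-0.61) and at Cyp2d26 (-0.38). At Cyp2d26 WT vehicle animal 2, with a log2 ratio of -0.15, lay far from the other 4 animals of its group, which lay between 0.01 and 0.06. It was the only such animal in 48 combinations of a probe set and a group, where chance gives about 1 in 20. Without it the WT response of Cyp2d26 was -0.29 (adjusted p = 0.0402).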

How the results depend on the processing

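Among the 12 probe sets the WT count of calls (3) rose to 6 with all 4 groups in 1 fit and was 2 with quantile normalization, with the replicate block and without the 4 vehicle animals that stood apart. The PXR-KO count (2) went to 1 with quantile normalization, 0 with the replicate block, 0 with trend and robust variances (limma, against 3 of 12 at an unadjusted p under 0.05 in the unaltered fit) and 1 once those 4 animals were left out. The count of differences (2) went to 0 with quantile normalization and 1 without those 4 animals. Over all probe sets, WT calls (6480) went to 1773 with quantile normalization, 3026 with the replicate block and 3308 without the 4 animals. PXR-KO calls (1645) went to 495, 119 and 363 in the same order, to 0 with trend and robust variances and to 3049 with all 4 groups in 1 fit. Differences (4936) went to 1231 with quantile normalization and 2544 without the 4 animals. Leaving out 1 animal at a time gave 2 to 4 calls among the 12 in WT, 2 to 2 in PXR-KO mice and 2 to 2 differences, and 4758 to 5955, 620 to 1728 and 3908 to 5120 over all probe sets. Fewer animals or residual degrees of freedom apply to the block and to the fits without animals; for the other settings the cause was not tested.

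The replicate numbers do not pair the animals: deviations of same-numbered vehicle and treated animals correlated at -0.242 to 0.0651, and 0 of 5 in each genotype matched best with its own number. With the block, the calls of Cyp2u1 in PXR-KO mice (adjusted p = 0.051 at 1453500_at, 0.0909 at 1444960_at) and of Cyp2j5 1417532_at in WT mice (0.0864) were lost.

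Signs turned only for responses that were not called. In PXR-KO mice Cyp2a12 became -0.011 with quantile normalization, -0.0044 with array weights and -0.0067 without the 4 animals, and ran from -0.019 to 0.034 with 1 animal left out. Cyp2j5 1417531_at became -0.0072, -0.026 and -0.058 in the same settings and -0.10 as the mean of both probe sets, and ran from -0.029 to 0.045, and Cyp2d22 1419039_at became 0.0021 without the 4 animals and ran from -0.040 to 0.031. In WT mice Cyp2d10 became -0.022 without the 4 animals and ran from -0.013 to 0.022, Cyp2d9 ran from -0.0047 to 0.041 and Cyp2j5 1417531_at from -0.073 to 0.0022. The difference at Cyp2j5 1417531_at became 0.015 with array weights and 0.00038 without the 4 animals, and that of Cyp2u1 1444960_at -0.086 as the mean of both probe sets. Counting every single probe set and setting, 710 values kept their direction and side of the threshold, 17 lost a call, 10 gained one and 28 turned sign. Background correction and a filter on dim probe sets were not run, because ratios keep no intensity.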
